A study of Arabidopsis thaliana with 8 samples.

Results

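The 39 genes described here encode the machinery that copies DNA in S phase of the cell cycle in Arabidopsis thaliana. They were listed by gene code and known function, at a time when earlier results of these data were known. They are 39 of the 22281 genes in the deposited expression table, and fall into 7 roles: 8 genes of origin recognition and licensing, the 6 MCM helicase genes, 5 genes of CDC45 and the GINS complex, 10 genes of polymerases, clamp and fork, 3 ribonucleotide reductase genes, 3 genes of the histone chaperone CAF-1, and 4 genes of E2F factors and RBR1. Poly-A RNA was sequenced from 4 wild-type and 4 lsh1 lsh3 lsh4 mutant libraries, both of the Col-0 strain. The mutant is a triple mutant in LSH1, LSH3 and LSH4, which encode plant transcription factors of the ALOG family. The tissue was enriched for inflorescence meristems, floral meristems and flowers to stage 8. Plants were kept in long days, 16 h of light before 8 h of darkness, between 20 and 22 °C. The libraries are called wild type 1 to 4 and mutant 5 to 8 after the numbers in their titles. The series describes 4 independent replicates per genotype without saying whether each came from separate plants, so the p-values cover no more than the spread among these 8 libraries.

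Before a cell copies its DNA, the origin recognition complex with CDC6 and CDT1 loads the ring of MCM2 to MCM7 onto origins. In S phase CDC45 and GINS join MCM to form the active helicase, and polymerases held by the sliding clamp PCNA copy both strands from nucleotides that ribonucleotide reductase supplies. In plants, E2F factors switch on many of these genes and RBR1 holds E2F back, and in shoot apices the transcripts are found mainly where cells divide, as in meristems and young flowers.

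Promoter sequences are shown first because a shared E2F element is the best known feature of these genes. The stretch from 250 bases before to 50 bases after each gene start in RefSeq (assembly TAIR10.1) was searched on both strands for 4 E2F elements, TTTCCCGC, TTTGGCGC, TTTCGCGC and TTTGCCGC. At least 1 of them was present in 16 of the 39 promoters (41.0%), against 1.76% of 27443 protein-coding promoters and 1.96% of the promoters of tested genes. MCM promoters held one in 5 of 6 cases, MCM7 being the exception. Below, the windows of those 5 genes and of POLA1 and FEN1 are given on the strand of the gene, 5′ to 3′, with the element or its reverse complement in capitals. The MCM windows are shown because these genes varied together most closely, POLA1 because it holds 2 elements, and FEN1 because it had the smallest p-value of the 39.
MCM2, chr1:16970184-16970223, plus strand: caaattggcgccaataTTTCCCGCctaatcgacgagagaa
MCM3, chr5:18773853-18773892, minus strand: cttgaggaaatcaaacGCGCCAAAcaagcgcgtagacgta
MCM4, chr2:7130741-7130780, minus strand: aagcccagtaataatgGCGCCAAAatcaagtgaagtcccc
MCM5, chr2:3527496-3527535, minus strand: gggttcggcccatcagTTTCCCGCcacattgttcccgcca
MCM6, chr5:18010690-18010729, minus strand: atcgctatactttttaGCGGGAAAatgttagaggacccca
POLA1, chr5:26776867-26776925, plus strand: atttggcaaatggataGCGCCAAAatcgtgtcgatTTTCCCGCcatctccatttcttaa
FEN1, chr5:9315544-9315583, minus strand: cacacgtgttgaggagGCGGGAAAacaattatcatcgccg

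The form TTTCCCGC accounted for most matches, in 13 of the 39 promoters against 0.798% of all promoters. TTTGGCGC was in 4, TTTCGCGC in 1 (FAS2) and TTTGCCGC in 0. PSF2, POLA1 and FAS1 held 2 elements each. Site II elements (TGGGCC or TGGGCT, either strand), common in genes of growing tissue, were in 19 of 39 (48.7%) against 21.7% of all promoters and 27.2% of those of tested genes. The core AACGG of the element found in mitotic genes was in 14 of 39 (35.9%) against 24.7% of all promoters and 26.9% of those of tested genes. No match of one kind of element overlapped a match of another kind in these promoters. Among 45 other replication genes 10 (22.2%) held an E2F element, and among 16 genes of G2 and mitosis 0 did, while 12 of those 16 (75%) held AACGG. A match is a description of the letters and not a shown binding site. Looser forms of the E2F element were not searched, and gene starts in RefSeq may differ from those the authors used.

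**Figure D1:**
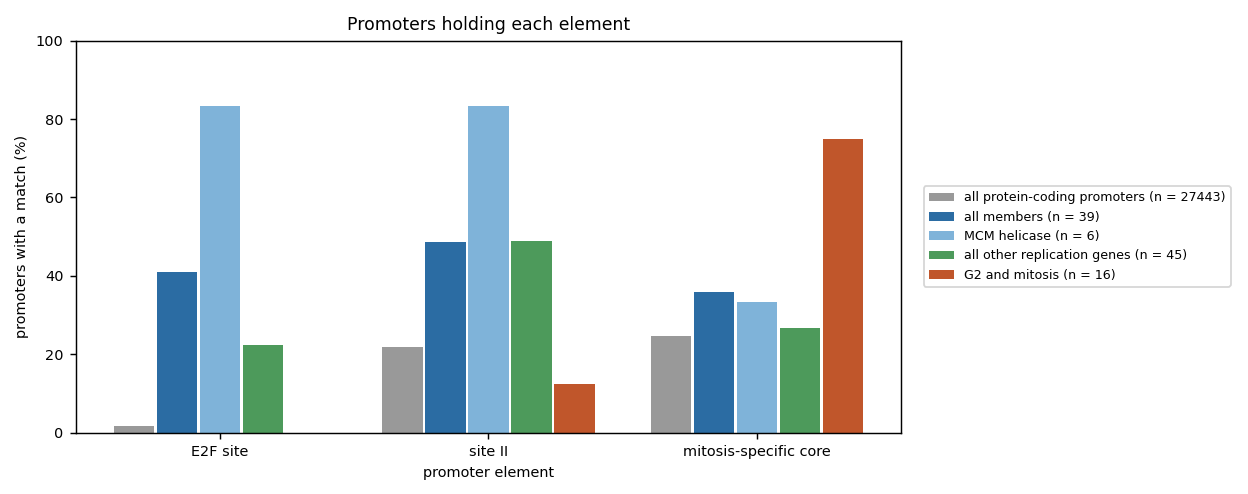
Share of promoters (%, vertical axis) that hold an E2F element, a site II element or the AACGG core of mitotic genes, for all protein-coding promoters, the 39 replication genes, the 6 MCM genes, 45 other replication genes and 16 G2 and mitosis genes. E2F elements were in 41.0% of the 39 promoters and 1.76% of all promoters, and AACGG was in 75% of the G2 and mitosis promoters.

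None of the 39 transcripts rose or fell in the mutant in a limma test at a Benjamini-Hochberg adjusted p under 0.05. The test covered 17706 genes with a mean of at least 1 FPKM (fragments scaled by transcript length and library size). In that test 24 genes were higher and 9 lower, which is 0.186% of the genes tested. All 39 genes passed the FPKM minimum. When limma weighted the libraries by their quality, 3 of the 39 were lower (FEN1, TOPII and DEL1). Of all 17706 genes tested, 1265 were higher and 1058 lower in that fit. At an unadjusted p under 0.05, the weighted fit had 5 of the 39 lower, against 16.3% of all genes. Without weights, at an unadjusted p under 0.05, 1 of the 39 was lower (FEN1) and 0 were higher, against 5.62% lower and 6.91% higher among all genes. FEN1 was also the only one of the 39 whose genotypes did not overlap. That is 1 gene lower and 0 higher, against 3.74% of all genes lower in every mutant library and 4.15% higher. The authors' deposited table of differential genes lists 822 genes, 3.69% of those in the expression table, and 0 of the 39.

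The fold changes were small and mostly negative. On the log2(FPKM + 1) scale, mutant minus wild type, 32 of the 39 values were below 0 (82.1%) against 52.4% of all genes tested. With each library rescaled to the same total, 30 were below 0, against 47.4% of all genes. The 39 were chosen with earlier results of these data known, and many varied together, so their signs are not independent. The median was -0.10 against -0.01 over all genes, with a range from -0.30 for PCNA1 to 0.15 for CDC6. No 95% interval reached farther from 0 than 0.63 on this scale, which understates changes in FPKM of low genes such as ORC1A. The median depended on single libraries: it was -0.04 without wild type 4, -0.06 without mutant 6, -0.17 without wild type 1 and -0.19 without mutant 8. The number of negative values was 25, 22, 36 and 37 in those cases. In bulk tissue, fewer dividing cells and less RNA per cell cannot be told apart.

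**Figure D2:**
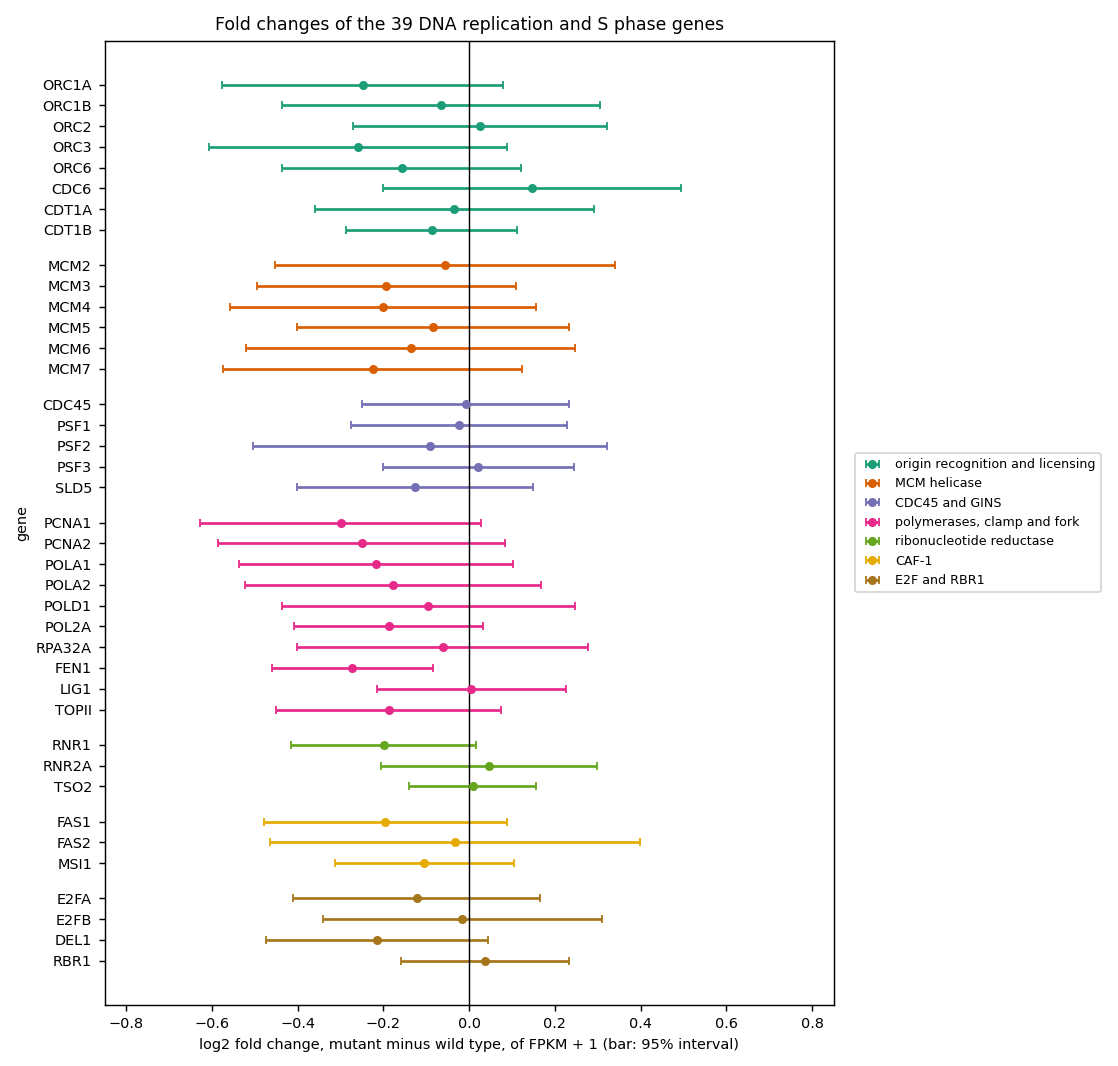
Log2 fold change of FPKM + 1 (horizontal axis, mutant minus wild type) with its 95% interval for each of the 39 genes, coloured by role. Points run from -0.30 (PCNA1) to 0.15 (CDC6), 32 lie left of 0, and FEN1 has the only interval that does not include 0.

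Origin recognition and licensing genes had low transcript levels, between 1.90 FPKM for ORC1A and 21.6 FPKM for CDT1A in the wild type. Of the 8, 6 had negative values, the median was -0.08, and the smallest adjusted p was 0.509 (limma). ORC1A (AT4G14700) and ORC1B (AT4G12620) encode alternative forms of the largest subunit of the origin recognition complex. ORC1A was at 1.44, 1.88, 2.35 and 1.93 FPKM in wild type 1 to 4 and at 1.55, 1.51, 1.49 and 1.16 FPKM in mutant 5 to 8, a log2 fold change of -0.25 (SE 0.14). ORC1B was at 5.74, 5.96, 8.56 and 7.65 FPKM in the wild type and at 7.52, 6.75, 7.41 and 4.84 FPKM in the mutant, a change of -0.07 (SE 0.16). Wild type 1 was the only wild-type library within the mutant range for ORC1A, whereas the genotypes overlapped widely for ORC1B. The coding sequences of the pair are 91.8% identical, with a longest shared run of 71 bases, so reads may be divided between them with error.

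ORC3 (AT5G16690), another subunit of the complex, was at 6.32, 6.49, 8.49 and 9.53 FPKM in the wild type and at 5.23, 6.07, 5.996 and 7.65 FPKM in the mutant. ORC6 (AT1G26840), the smallest subunit, was at 6.41, 7.65, 7.80 and 7.57 FPKM in the wild type and at 8.19, 5.79, 6.50 and 5.68 FPKM in the mutant. Their changes were -0.26 (SE 0.15) and -0.16 (SE 0.12), and the genotypes overlapped in both. CDT1A (AT2G31270) and CDT1B (AT3G54710) help load the MCM ring. CDT1A was at 16.7, 20.6, 23.2 and 25.7 FPKM in the wild type and at 22.0, 17.7, 19.6 and 24.3 FPKM in the mutant. CDT1B was at 12.8, 13.2, 14.1 and 14.8 FPKM in the wild type and at 13.5, 11.3, 12.5 and 14.1 FPKM in the mutant. Both pairs of ranges overlapped, with changes of -0.03 and -0.09. ORC2 (AT2G37560; 0.02) and the MCM loader CDC6 (AT2G29680; 0.15, from 3.20 ± 0.563 to 3.65 ± 0.716 FPKM, SD, n = 4) were the 2 genes of this role with positive values.

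The 6 MCM genes had negative values throughout, with a median of -0.16, and none passed (smallest adjusted p = 0.570, limma). They were also negative with libraries rescaled to the same total and with quantile scaling, but not in every fit with 1 library left out. Scaling by medians of ratios left the values almost unchanged (MCM2 at -0.056 with and without it), so it was no separate check. MCM2 was at 0.014 without wild type 3, 0.051 without wild type 4 and 0.042 without mutant 6, and at 0.0048 with libraries weighted by their quality. MCM5 was at 0.0082 without wild type 4 and 0.016 without mutant 6, and MCM4 was at -0.063 without wild type 4. MCM7 (AT4G02060) was at 31.6, 34.7, 43.2 and 47.6 FPKM in wild type 1 to 4 and at 36.2, 27.1, 31.2 and 38.7 FPKM in mutant 5 to 8, a change of -0.23 (95% interval -0.57 to 0.12). MCM3 (AT5G46280) was at 26.0, 27.8, 34.0 and 38.5 FPKM in the wild type and at 27.8, 24.0, 26.1 and 31.2 FPKM in the mutant, a change of -0.19 (-0.50 to 0.11). MCM4 (AT2G16440) was at 23.6, 25.9, 31.1 and 39.5 FPKM in the wild type and at 26.2, 21.8, 25.8 and 28.8 FPKM in the mutant, a change of -0.20 (-0.56 to 0.16). In all 3 genes wild type 3 and 4 were above every mutant library, while wild type 1 and 2 lay among the mutant libraries. MCM6 (AT5G44635; -0.14), MCM5 (AT2G07690; -0.09) and MCM2 (AT1G44900; -0.06) overlapped between genotypes as well, over ranges of 15.6 to 28.4, 29.3 to 47.3 and 21.7 to 35.7 FPKM.

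**Figure D3:**
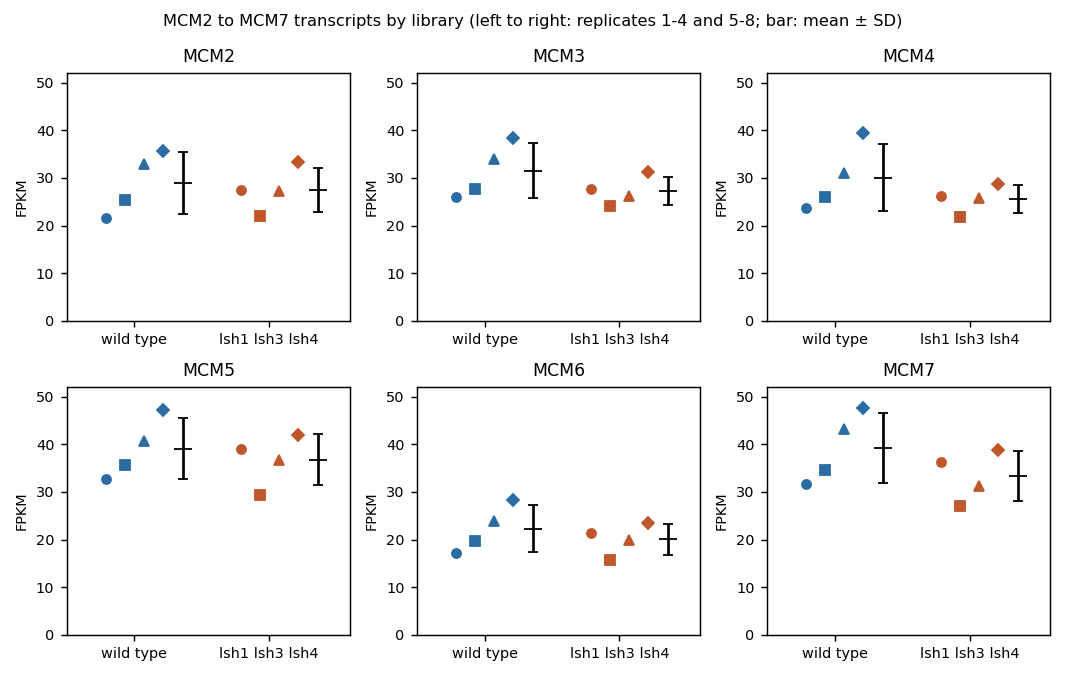
FPKM (vertical axis) of MCM2 to MCM7 in each of the 4 wild-type (blue) and 4 lsh1 lsh3 lsh4 (orange) libraries, with the mean and SD of each genotype in black. In every panel the highest point is wild type 4 and the lowest mutant library is mutant 6, and the genotypes overlap.

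The MCM proteins form a ring with 1 copy of each, and the transcripts kept nearly fixed proportions while their sum varied. The summed MCM level was 153, 169, 206 and 237 FPKM in the wild type and 178, 140, 167 and 197 FPKM in the mutant. MCM5 made up 20.6 ± 0.825% of the sum in the wild type and 21.5 ± 0.510% in the mutant (SD, n = 4), and MCM7 20.6 ± 0.384% and 19.5 ± 0.679%. MCM6, the lowest of the 6, made up 11.6 ± 0.289% and 11.7 ± 0.389%. The shares of MCM2, MCM3 and MCM4 lay between 14.2% and 17.2% in all 8 libraries. For each of the 6 genes the range of shares overlapped between the genotypes.

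CDC45 and the GINS subunits, which turn the MCM ring into an active helicase, had the values closest to 0 after ribonucleotide reductase, with a median of -0.02 and 4 of 5 negative. SLD5 (AT5G49010) was at 6.94, 6.24, 7.35 and 8.64 FPKM in the wild type and at 6.29, 5.61, 6.91 and 7.56 FPKM in the mutant, a change of -0.13 (SE 0.12). PSF2 (AT3G12530) was at 10.4, 11.8, 12.6 and 14.3 FPKM in the wild type and at 12.03, 7.87, 11.3 and 15.6 FPKM in the mutant, a change of -0.09 (SE 0.18). PSF1 (AT1G80190) was at 6.13, 7.55, 6.79 and 7.52 FPKM in the wild type and at 6.61, 5.91, 6.92 and 8.07 FPKM in the mutant, a change of -0.02 (SE 0.11). The genotypes overlapped in all 3, and for PSF2 the mutant libraries spanned the whole wild-type range. CDC45 (AT3G25100) was at 6.79 ± 0.0714 and 6.80 ± 1.01 FPKM, so that the 4 wild-type libraries were close together and the mutant ones were not. Its change was -0.01, and 0.01 when libraries were rescaled to the same total.

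PSF3 is present as a pair of genes whose coding sequences are 99.6% identical, with an identical run of 228 bases, so their separate values are uncertain. PSF3 (AT1G19080) was at 18.7 ± 1.39 FPKM in the wild type and 19.1 ± 2.27 in the mutant, and its copy PSF3b (AT3G55490), which is not among the 39, was at 23.9 ± 2.56 and 18.2 ± 2.16 FPKM. The sum of both was 37.2, 43.2, 46.1 and 44.0 FPKM in the wild type and 37.3, 35.4, 39.9 and 36.6 FPKM in the mutant. Wild type 1 lay within the mutant range of the sum and the other wild-type libraries above it.

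Among the 10 genes of polymerases, clamp and fork, 9 had negative values, with a median of -0.19. FEN1 (AT5G26680), the flap nuclease that trims Okazaki fragments, was at 29.0, 31.2, 26.7 and 30.9 FPKM in wild type 1 to 4 and at 25.4, 24.2, 25.9 and 21.4 FPKM in mutant 5 to 8. Every mutant library was below every wild-type library, by less than 1 FPKM between wild type 3 and mutant 7. The change was -0.27 (95% interval -0.46 to -0.08, unadjusted p = 0.00979, limma adjusted p = 0.234), and its adjusted p ran from 0.0264 to 0.561 over the alternatives tried. The lowest came with the weighted libraries.

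PCNA1 (AT1G07370) and PCNA2 (AT2G29570) encode the sliding clamp. PCNA1 was at 43.7, 58.3, 61.8 and 70.5 FPKM in the wild type and at 42.3, 43.0, 49.5 and 53.0 FPKM in the mutant. Its change of -0.30 (95% interval -0.63 to 0.03, limma adjusted p = 0.438) was the most negative of the 39 on the log2(FPKM + 1) scale. With a pseudocount of 0.1 or 0.5, ORC1A was lower. PCNA2 was at 57.9, 65.0, 70.0 and 79.7 FPKM in the wild type and at 57.7, 44.5, 56.2 and 71.5 FPKM in the mutant (-0.25, -0.59 to 0.08). For PCNA1, wild type 1 alone lay within the mutant range. With 1 library left out, its value ran from -0.43 without wild type 1 (limma adjusted p = 0.214) to -0.21 without wild type 4 (0.606). POL2A (AT1G08260), the catalytic subunit of polymerase epsilon, was at 8.97, 8.79, 8.73 and 9.67 FPKM in the wild type and at 7.10, 6.99, 8.30 and 9.01 FPKM in the mutant. Its change was -0.19 (SE 0.10), with mutant 8 alone inside the wild-type range.

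The other genes of this role overlapped between the genotypes. POLA1 (AT5G67100), the catalytic subunit of polymerase alpha, was at -0.22 and its partner POLA2 (AT1G67630) at -0.18 on the log2 scale. POLD1 (AT5G63960), the catalytic subunit of polymerase delta, was at -0.09 and RPA32A (AT2G24490), a subunit of the single-strand binding protein RPA, at -0.06. TOPII (AT3G23890), the topoisomerase that untangles copied DNA, was at -0.19, and the DNA ligase gene LIG1 (AT1G08130) at 0.0049, from 28.9 ± 3.57 to 29.0 ± 2.25 FPKM.

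Ribonucleotide reductase makes the deoxynucleotides for replication, and 1 of its genes had the highest level of the 39. TSO2 (AT3G27060), a small subunit, was the most abundant of the 39, at 84.9, 96.0, 94.3 and 96.6 FPKM in the wild type and 97.0, 89.1, 92.0 and 95.6 FPKM in the mutant, a change of 0.01 (95% interval -0.14 to 0.16). RNR2A (AT3G23580), the other small subunit measured, was at 28.4, 30.9, 30.4 and 32.1 FPKM in the wild type and at 27.0, 28.9, 31.9 and 39.1 FPKM in the mutant (0.05). RNR1 (AT2G21790), the large subunit, was at 63.0, 64.8, 73.7 and 77.0 FPKM in the wild type and at 57.8, 54.1, 62.4 and 67.7 FPKM in the mutant (-0.20, 95% interval -0.41 to 0.02, limma adjusted p = 0.432). The genotypes overlapped in all 3, for RNR1 through mutant 8 alone.

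CAF-1 places histones on newly copied DNA. FAS1 (AT1G65470), its large subunit, was at 9.31, 11.1, 12.6 and 12.4 FPKM in the wild type and at 9.15, 8.39, 10.004 and 11.6 FPKM in the mutant (-0.20). FAS2 (AT5G64630), the middle subunit, was at 7.51, 8.78, 13.8 and 11.97 FPKM in the wild type and at 10.9, 7.89, 9.81 and 11.7 FPKM in the mutant (-0.03). MSI1 (AT5G58230), a subunit shared with Polycomb complexes, was at 49.2, 53.1, 62.9 and 62.9 FPKM in the wild type and at 49.8, 52.1, 53.9 and 55.1 FPKM in the mutant (-0.10). All 3 values were negative and all 3 overlapped.

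E2F factors and RBR1 are known regulators of many of the genes above. DEL1 (AT3G48160), an atypical E2F that holds back the onset of endoreplication, was at 8.30, 8.45, 8.01 and 8.91 FPKM in the wild type and at 8.58, 5.96, 6.42 and 7.71 FPKM in the mutant (-0.22, SE 0.11, limma adjusted p = 0.474). Mutant 5 lay within the wild-type range and the other mutant libraries below it. E2FA (AT2G36010) and E2FB (AT5G22220) are activating E2F factors. E2FA was at 8.37, 8.72, 10.6 and 11.96 FPKM in the wild type and at 8.28, 8.48, 8.70 and 10.5 FPKM in the mutant (-0.12). E2FB was at 4.87, 6.15, 6.15 and 7.39 FPKM in the wild type and at 7.19, 4.90, 5.66 and 6.49 FPKM in the mutant (-0.02, and 0.0026 when libraries were rescaled to the same total). RBR1 (AT3G12280), the retinoblastoma relative that binds E2F, was at 33.1, 32.0, 38.3 and 38.0 FPKM in the wild type and at 35.9, 33.5, 35.4 and 40.1 FPKM in the mutant (0.04). The genotypes overlapped in these 3 genes.

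The balance within 5 pairs of related genes was compared by an exact 2-sided permutation test of the log2 ratio of FPKM + 1, where the smallest p that 4 against 4 libraries allow is 0.0286. PCNA1 stood at 0.855 ± 0.0668 of the FPKM of PCNA2 in the wild type and 0.830 ± 0.113 in the mutant (SD, n = 4; difference of log2 ratios -0.05, exact permutation p = 0.686). ORC1A stood at 0.273 ± 0.0301 of ORC1B in the wild type and 0.218 ± 0.0176 in the mutant (difference -0.18, exact permutation p = 0.143, adjusted over the 5 pairs 0.714). On the FPKM ratio itself, which was not tested, each mutant library, between 0.202 and 0.240, was below each wild-type library, between 0.251 and 0.315. FPKM ratios of the other pairs overlapped between the genotypes. ORC1A was low and its coding sequence is 91.8% identical to that of ORC1B, so their ratio is uncertain. CDT1A exceeded CDT1B by 1.56 ± 0.189 and 1.62 ± 0.0716 times, and E2FA exceeded E2FB by 1.62 ± 0.143 and 1.51 ± 0.251 times. RNR2A stood at 0.328 ± 0.00663 of TSO2 in the wild type and at 0.340 ± 0.0545 in the mutant, where the 4 ratios ran from 0.278 to 0.409. No pair passed, with adjusted p between 0.714 and 0.771 over the 5 exact permutation tests. A single pair with fully separate ratios could reach no adjusted p below 0.143, so no pair could have passed alone.

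The replication genes varied widely among the libraries of each genotype. Summed over the 39 genes, the level was 836, 920, 1002 and 1105 FPKM in wild type 1 to 4 and 895, 773, 872 and 991 FPKM in mutant 5 to 8. Wild type 4 was the highest of the 8 libraries for 24 of the 39 genes, against 15.0% of all genes tested, and mutant 6 the lowest for 19 of 39 (48.7%) against 14.1%. Within the wild type, wild type 1 was the lowest library for 30 of the 39 genes (76.9%), against 30.7% of all genes tested. Within the mutant, mutant 8 was the highest for 30 of the 39, against 34.2% of all genes tested.

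**Figure D4:**
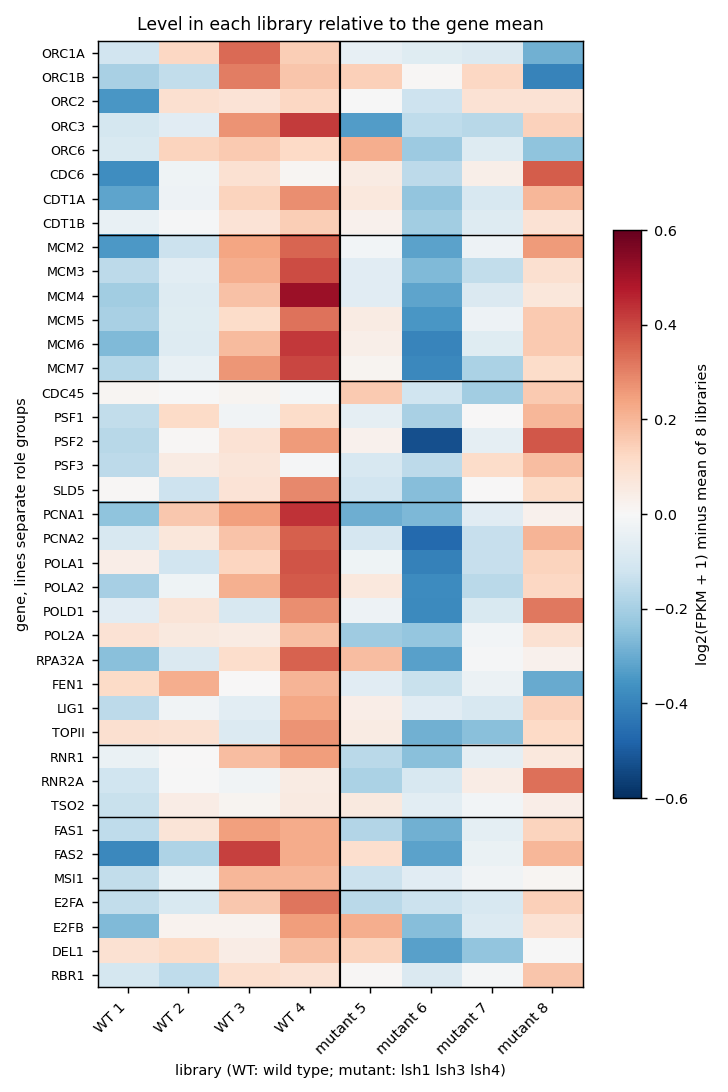
Level of each of the 39 genes (one line each, by role) in each library, as log2(FPKM + 1) minus the mean of the 8 libraries (red above, blue below). Most lines are highest in wild type 4 and lowest in mutant 6 or wild type 1. Exceptions include ORC1A, ORC1B, ORC6 and FEN1, which are lowest in mutant 8, and 8 lines that are highest in mutant 8.

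With the genotype means removed, the 6 MCM genes moved together from library to library, with pairwise Pearson correlations of 0.938 to 0.993 (mean 0.966 over 8 libraries). The mean over all pairs of the 39 genes was 0.575, and over all pairs of tested genes 0.000432. In that last mean positive and negative correlations cancel, so it does not show how large single correlations were. Within the other lists described below, the mean ran from -0.23 for nucleotide supply genes to 0.888 for early stress genes. It was 0.8496 for green tissue genes and 0.458 for G2 and mitosis genes, so moving together was not particular to the replication genes. These are descriptions of 8 libraries, in which all genes share the same RNA, library and scaling. Closest to the MCM genes were POLA2 (mean correlation 0.965), CDT1A (0.955), CDT1B (0.918), PCNA2 (0.913), RPA32A (0.909) and RNR1 (0.909). Farthest from them were ORC6 (0.347), ORC1A (0.269), ORC1B (0.250) and FEN1 (-0.21). FEN1 also had the smallest p-value between genotypes, whereas ORC1A and ORC1B had unadjusted p of 0.120 and 0.699 (limma). A link between the p-value and the correlation was not tested. Across the promoters above, the 16 genes with an E2F element had a median fold change of -0.19 (14 negative) and the 23 without one a median of -0.09 (18 negative). MCM7, with no element in the window, was at -0.23.

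Other genes of the pathway also gave small and mostly negative values. Of 46 further replication genes 44 were tested and 0 passed. Of the 44, 37 had negative values (84.1%) against 52.4% of all genes tested, and the median was -0.09. POL2B was below the FPKM minimum. At an unadjusted p under 0.05, 2 of the 44 were lower, against 5.62% of all genes tested. They were PSF3b (-0.37, limma adjusted p = 0.225), the near-identical copy described above, and DUT1 (AT3G46940; 82.0 ± 14.8 to 63.8 ± 7.43 FPKM, -0.35, adjusted p = 0.356), which removes dUTP. In the list grouped under origin recognition and licensing, which also holds MCM8, MCM9 and ETG1, all 7 values were negative. The lowest was that of MCM9 (-0.24). In the polymerase and clamp loader list 13 of 15 were negative, where RFC2 was at -0.27 and RFC1 at -0.13. Of 8 RPA genes 6 were negative (RPA14A -0.33), of 5 nucleotide supply genes 3 (THY1 -0.11), and of 9 further E2F, DP and S phase regulators 8 (CYCA3;2 -0.12).

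Genes of the next cell cycle phase, G2 and mitosis, were negative in 16 of 16 cases, against 52.4% of all genes tested. Their median was -0.13, and 0 passed. At an unadjusted p under 0.05, 5 of the 16 were lower, against 5.62% of all genes tested. Of these, 3 did not overlap, against 3.74% of all genes lower in every mutant library. CDKB2;2 (AT1G20930), a mitotic kinase, was at 46.1, 42.3, 41.0 and 49.0 FPKM in the wild type and at 36.2, 36.2, 36.3 and 34.8 FPKM in the mutant (-0.30, limma adjusted p = 0.149). CDKB2;1 (AT1G76540) was at 101, 105, 90.8 and 117 FPKM in the wild type and at 85.3, 86.2, 84.3 and 83.0 FPKM in the mutant (-0.28, adjusted p = 0.210). In both kinases the 4 mutant libraries lay within 4 FPKM of each other, mutant 6 included, which was the lowest mutant library for 28 of the 39 replication genes. CYCB2;2 was at -0.28 and CDKB1;1 at -0.26. The lowest value of CYCB2;2 was in mutant 8 (14.8 FPKM) and that of CDKB1;1 in mutant 6 (20.9 FPKM). Summed over the 16 genes, the level was 709.6, 628.7, 629.0 and 669.7 FPKM in mutant 5 to 8, so the 2 kinases do not stand for the whole list.

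Markers of the tissue varied between the same libraries. The summed level of 12 meristem and early flower genes was 283, 373, 352 and 515 FPKM in wild type 1 to 4 and 377, 233, 276 and 491 FPKM in mutant 5 to 8, so wild type 4 was highest and mutant 6 lowest, as for the replication genes. Of these genes 10 were tested and 0 passed. STM (AT1G62360), which maintains the shoot meristem, was lower in every mutant library (87.0 ± 9.41 to 66.7 ± 3.25 FPKM, -0.37, limma adjusted p = 0.145), AP1 was at -0.56 and TFL1 at 0.48, and the stem cell genes WUS and CLV3 were below a mean of 1 FPKM. Not all of these genes followed their sum. AP1 did, with 121 FPKM in wild type 4 and 32.3 FPKM in mutant 6. TFL1 went the other way, highest in mutant 6 (43.2 FPKM) and lowest in wild type 4 (15.8 FPKM). STM was lowest in mutant 5 (62.1 FPKM). The summed level of 17 photosynthesis genes, markers of green tissue, ran from 15018 to 25817 FPKM in the wild type and from 22571 to 29471 FPKM in the mutant, with 17 of 17 positive values (median 0.46, 0 passing) and the highest sum in mutant 6. The summed level of 13 early stress genes was 1529, 664, 303 and 131 FPKM in the wild type and between 87.3 and 203 FPKM in the mutant. Wild type 1, the lowest wild-type library for most replication genes, thus had the highest stress sum, and all 11 tested stress genes had negative values (median -1.78, 0 passing, CBF1 at 0 in mutant 8). Of 10 tapetum and pollen wall genes 7 were at 0 in at least 1 library, DYT1 in all but mutant 8 (1.82 FPKM), and the sum was 18.5 to 23.7 FPKM over all libraries. Nearly all of that sum came from LAP6 (9.41 ± 1.73 and 10.2 ± 1.07 FPKM) and TKPR1 (10.3 ± 0.896 and 10.2 ± 0.770 FPKM), which were found in every library. The part of these differences in the values of the replication genes was not tested.

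**Figure D5:**
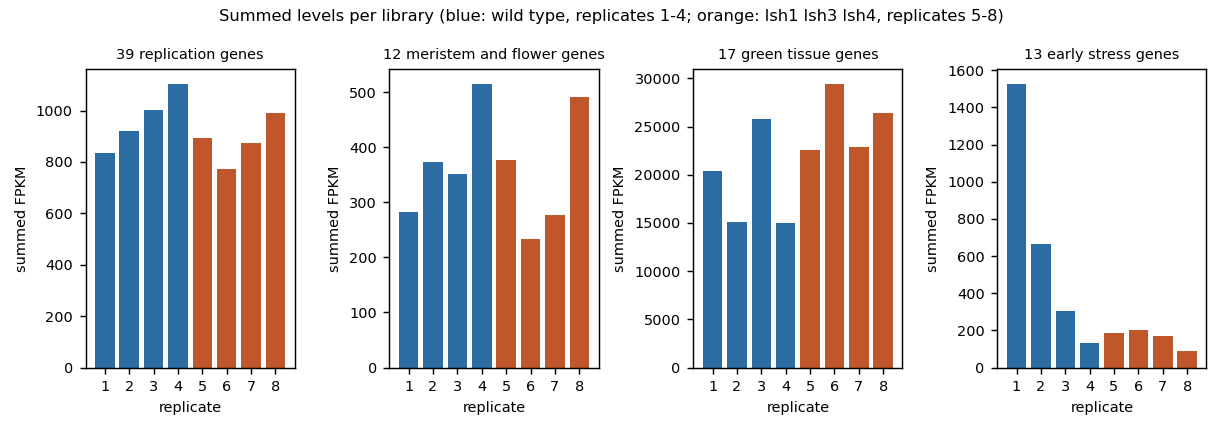
Summed FPKM (vertical axes, each from 0) per library of the 39 replication genes, 12 meristem and early flower genes, 17 green tissue genes and 13 early stress genes, for wild type 1 to 4 (blue) and mutant 5 to 8 (orange). Wild type 4 is highest and mutant 6 lowest for both the replication sum and the meristem and early flower sum, which TFL1 and STM did not follow. The stress sum is highest in wild type 1, at 1529 FPKM.

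The mutated genes were read as a check of the labels. LSH4 averaged 22.1 ± 2.08 FPKM in the wild type and 5.51 ± 1.42 in the mutant (-1.85 on the log2 scale, limma adjusted p = 0.00773). LSH1 averaged 10.1 ± 1.96 and 2.87 ± 0.967 FPKM (-1.53, limma adjusted p = 0.0423). LSH3 was at 17.2 ± 5.28 and 13.5 ± 2.35 FPKM (-0.30, adjusted p = 0.607), and the labels do not say what kind of alleles the mutant carries. The FPKM values of a library summed to between 826022 and 906962, which is not a depth, and between 1233 and 2461 genes were listed at 0. The number of reads behind each value is unknown. From the steps between low values, reads per FPKM relative to wild type 1 were 1.41 in wild type 2, 1.37 in wild type 4 and 1.23 in mutant 6, and could not be settled for the other libraries.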

How the data were processed

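RNA was measured in 8 libraries, 4 per genotype, grouped by their titles. The deposited table holds 1 FPKM value per gene and library, as the authors named it. The build was TAIR10 and the tools named are RSEM and DESeq2, per the submitters' processing notes; the sources used here give no version, aligner or annotation. The authors' deposited table of differential genes has 825 rows of log2 fold change, p-value and adjusted p (at most 0.0499), per the file headers; only its gene list was used.

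Values were analysed as log2(FPKM + 1) with limma 3.58.1 in R 4.3.3 (trend, moderated variances, 2-sided, threshold 0.05 after Benjamini-Hochberg adjustment over the 17706 genes that averaged at least 1 FPKM), tested on simulated data. FPKM is a relative measure, so a change shared by most genes would not show. Scaling by medians of ratios left the values almost unchanged (median of the 39 -0.1043 with and without it). The deposited values were thus already even on that scale, while their library totals differed. Fold changes of low genes are understated by the pseudocount of 1. No count model was fitted and no counting interval is given. The 39 genes and all lists were chosen with earlier results of these data known. All 39 genes are named. Values per library are given for paired genes and for up to 3 genes per role with the smallest unadjusted p, with sums and ranges for the rest, and of each other list at most 4 genes with the smallest unadjusted p. The files carry no coordinates. Promoters, coordinates and coding sequences came from RefSeq for TAIR10.1, matched by gene code for 39 of 39 genes, and identity was computed with Biopython 1.88 alignments. Alternatives covered pseudocount, filter, scaling, moderation, array weights and each library left out.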

Additional observations from a re-analysis of the deposited data

Results flagged for a closer look

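Of 90 groups of 4 libraries examined (39 genes, the summed MCM level and the paired ratios in each genotype), 4 held a library far from the other 3, and chance flags about 1 in 20 groups, or 4.5 of 90. ORC1A stood at 1.164 FPKM in mutant 8, with the other mutant libraries between 1.493 and 1.554. ORC2 stood at 3.465 FPKM in wild type 1, with the others between 5.022 and 5.187. ORC6 stood at 6.408 FPKM in wild type 1, with the others between 7.573 and 7.801. The log2 ratio of PCNA1 to PCNA2 stood at -0.3967 in wild type 1, with the others between -0.1759 and -0.1548.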

How the results depend on the processing

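Over all genes, 24 were higher and 9 lower. These counts were 7 and 5 with no filter on low values, 14 and 5 with libraries rescaled to the same total, and 1265 and 1058 with array weights. With 1 library left out they ran from 0 to 79 higher and from 0 to 25 lower, with 0 and 0 without wild type 2 and 79 and 25 without wild type 3. Without wild type 1 they were 5 and 5, and in the other cases between 2 and 4. Of the 39 replication genes 0 were called in every alternative except array weights. There 3 were lower, against 1058 of the 17706 genes tested: FEN1 (limma adjusted p = 0.0264), TOPII (0.0359) and DEL1 (0.0393). Over all alternatives their adjusted p ran up to 0.561, 0.765 and 0.734. The median fold change of the 39 ran from -0.19 to -0.04 with 1 library left out and from -0.11 to -0.08 in the other alternatives.

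Values of 18 genes changed sign in some alternative, from LIG1 (0.0049 with all libraries) to SLD5 (-0.13). Rescaling to the same total gave CDC45 0.011 and E2FB 0.0026. Array weights gave ORC1B 0.16, ORC2 -0.0055, MCM2 0.0048, SLD5 0.0045, RPA32A 0.0034, LIG1 -0.058, TSO2 -0.038 and FAS2 0.049. With 1 library left out, the changes of sign lay within these ranges: ORC1B -0.14 to 0.058, ORC2 -0.088 to 0.069, CDT1A -0.15 to 0.052, MCM2 -0.18 to 0.051, MCM5 -0.16 to 0.016, CDC45 -0.061 to 0.060, PSF1 -0.094 to 0.036, PSF2 -0.23 to 0.070, PSF3 -0.036 to 0.077, POLD1 -0.22 to 0.016, RPA32A -0.16 to 0.045, LIG1 -0.047 to 0.083, RNR2A -0.056 to 0.12, TSO2 -0.034 to 0.031, FAS2 -0.17 to 0.099, E2FB -0.11 to 0.067 and RBR1 -0.012 to 0.076. The paired ratios that changed sign with 1 library left out ranged from -0.029 to 0.11 for CDT1A to CDT1B, -0.12 to 0.0066 for PCNA1 to PCNA2, -0.17 to 0.0016 for E2FA to E2FB and -0.053 to 0.13 for RNR2A to TSO2. In total 605 of the values of single genes under an alternative kept their direction and side of the threshold, 52 changed sign and 3 passed it. The 605 include those under median-of-ratios scaling, which left the values almost unchanged. Why results moved: the cause was not tested.

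No paired analysis was possible because the groups share no replicate number. Depth is unknown, so the counting error of low genes such as ORC1A cannot be given.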
